A study of Homo sapiens with 8 samples.

Results

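The genes described here are 161 antisense noncoding genes of the human leukemia line NKM-1, compared between cells treated with the compound SF153 and cells treated with its solvent. They were selected on 3 properties: a biotype of lncRNA (long noncoding RNA), a symbol that ends in AS and a number, and a signal that averaged 5 or more across the 8 libraries. The 161 entries carry 160 symbols, because ASMTL-AS1 is listed once for each copy of a region shared by the X and Y chromosomes. They were drawn from 461 antisense lncRNA entries, 3742 lncRNA entries and 17912 genes in all. The value that chose them was the mean over both treatments, which does not use the difference between treatments. In 143 of them both treatment means reached 5, in 9 only the DMSO mean did, and in 9 only the SF153 mean did. Just inside the limit were LCMT1-AS1 at a mean of 5.01, CARD8-AS1 at 5.03 and DGUOK-AS1 at 5.04, and just outside were KIAA1614-AS1 at 4.98, C21orf62-AS1 at 4.98 and FBXL19-AS1 at 4.93.

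NKM-1 is an established myeloid leukemia cell line, described in the labels as wild type. It received either SF153 at 30 uM or DMSO for 48 h, and the series title describes the compound as directed at splicing factors with a UHM, a protein domain that resembles an RNA-binding domain but contacts other splicing proteins. There were 4 libraries per treatment, 2 in each of 2 batches, named here by batch and number (SF153 2.1 belongs to batch 2). RNA sequencing was done on total RNA without ribosomal RNA, with a stranded kit. The labels do not state that the libraries of a treatment and batch came from separate cultures, so p-values measure the spread between libraries, which may be technical. Of 15 myeloid markers 12 were listed, and their summed signal was 1712 to 1948 in DMSO and 1272 to 1543 in SF153. Of the 12, 7 had the lower mean in SF153, MPO (740.3 and 469.6) and LYZ (220.9 and 112.1) by the widest gaps, and CD33, CSF3R, CD68, AZU1 and ITGAM had the higher. None of 4 stromal or epithelial markers was listed. CEBPE, KIT and ELANE were the myeloid markers without an entry. CD14 was listed below 1 in the mean of each treatment. Markers of B cells (CD79A and PAX5 were the ones listed of 4) summed to 25.9 to 32.4 in DMSO and 5.83 to 13.5 in SF153, with CD79A going from a mean of 27.1 to 6.72 and PAX5 from 1.66 to 2.62. The single listed T cell marker of 4, CD2, was at 5.08 to 6.07 in DMSO and 0 to 0.705 in SF153, and the single erythroid marker, EPOR, at or below 2.26 in every library. Their part in the differences below was not tested.

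An antisense gene is transcribed from the DNA strand opposite to a protein-coding gene at the same place, and its symbol is the coding gene's symbol with AS added. Many such RNAs start at the coding gene's own promoter, which fires in both directions, or run through its exons from the other strand. They are mostly spliced RNA polymerase II transcripts, often kept in the nucleus, and many are shortened by early termination and degraded by the nuclear RNA exosome, a complex of RNA-degrading enzymes. Some regulate the coding partner, and for most no function is known.

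Positions in GENCODE release 29 on GRCh38 were found for 159 of the 161, and 158 of these could be set against their coding partner, always on the opposite strand. In 89 pairs the closest annotated starts lay within 1 kb of each other. In a further 54 the exons overlapped, in 11 the antisense gene met only introns of the partner, and in 4 the genes did not overlap. Exon bases were shared in 126 of the 158 pairs, with a median of 304 shared bases. The sources used here do not say whether reads were assigned by strand, and without strand the reads of such shared bases cannot be told apart. The antisense genes had 417 to 20654 exon bases (median 3092), and 6 had a single exon block.

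Promoter sequence helps to show how closely the antisense and coding starts lie in some pairs. The 4 windows below, from RefSeq on GRCh38.p14, run from 250 bases before to 50 bases after the start of an antisense gene, so that the start is base 251, read 5′ to 3′ on the antisense strand. They were chosen because they belong to the pair with the largest change in ratio (TPT1-AS1, chr13:45341095-45341394, plus strand), the largest rise (RTCA-AS1, chr1:100266125-100266424, minus strand), the largest fall (CDK6-AS1, chr7:92836233-92836532, plus strand) and the highest level (PSMA3-AS1, chr14:58298088-58298387, minus strand). Capitals mark matches to the ETS core CCGGAAG, the NRF1 motif GCGCATGCGC, the CCAAT box CCAAT and the TATA box TATAAA, searched on both strands; the CCAAT box read from the other strand appears as ATTGG.
TPT1-AS1: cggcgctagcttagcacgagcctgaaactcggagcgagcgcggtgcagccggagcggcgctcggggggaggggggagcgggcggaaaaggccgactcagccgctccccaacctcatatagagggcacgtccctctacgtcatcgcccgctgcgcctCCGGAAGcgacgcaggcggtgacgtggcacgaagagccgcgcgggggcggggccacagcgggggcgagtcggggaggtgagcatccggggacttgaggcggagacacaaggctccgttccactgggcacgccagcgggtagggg
RTCA-AS1: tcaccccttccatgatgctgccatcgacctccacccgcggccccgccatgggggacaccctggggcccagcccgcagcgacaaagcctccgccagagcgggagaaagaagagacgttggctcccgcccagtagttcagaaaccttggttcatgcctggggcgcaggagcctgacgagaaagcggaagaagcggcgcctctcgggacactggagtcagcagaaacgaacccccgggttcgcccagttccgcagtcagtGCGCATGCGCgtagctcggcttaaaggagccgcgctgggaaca
CDK6-AS1: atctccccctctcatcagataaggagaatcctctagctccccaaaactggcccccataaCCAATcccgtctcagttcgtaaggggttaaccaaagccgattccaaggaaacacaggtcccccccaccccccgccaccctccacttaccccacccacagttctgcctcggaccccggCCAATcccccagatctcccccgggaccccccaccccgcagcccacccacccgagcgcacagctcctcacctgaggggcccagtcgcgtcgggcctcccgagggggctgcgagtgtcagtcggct
PSMA3-AS1: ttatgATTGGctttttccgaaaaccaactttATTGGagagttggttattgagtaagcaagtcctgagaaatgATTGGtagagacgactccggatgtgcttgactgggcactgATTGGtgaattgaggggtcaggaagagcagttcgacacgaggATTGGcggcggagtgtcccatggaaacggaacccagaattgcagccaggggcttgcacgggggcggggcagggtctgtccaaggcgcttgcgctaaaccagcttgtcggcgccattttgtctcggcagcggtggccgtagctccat

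The TPT1-AS1 window also holds the start of TPT1, the coding gene, at base 89 on the other strand, 162 bases from the antisense start, with 1 ETS core between them at base 157. RTCA-AS1 starts only 42 bases from RTCA, whose start is base 209 of the window, and an NRF1 motif lies at base 258, just inside the antisense transcript. The CDK6-AS1 window has CCAAT boxes at bases 60 and 177 and does not reach the start of CDK6, which lies downstream of the antisense start, so that the RNAs of the pair overlap at their 5′ ends. PSMA3-AS1 starts far from PSMA3 in RefSeq and meets it at the 3′ ends, and its own window has 5 CCAAT boxes, all on the strand opposite to the antisense gene. A match describes letters only and is not a measured binding site.

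Promoter windows were found for 126 of the 160 symbols. Their median GC content was 63.2% with a median of 23.5 CpG dinucleotides, against 58.7% and 14 over all 34961 RefSeq windows of the same length outside the Y chromosome. An ETS core was present in 17.5% of the antisense windows and 10.3% of all windows, an NRF1 motif in 2.38% (3 windows) and 1.24%, a CCAAT box in 37.3% and 34.6%, and a TATA box in 6.35% and 11.5%. The windows of 103 coding partners were much alike, with 63.3% GC and 24 CpG in the median. Their shares were 19.4% for the ETS core, 2.91% for NRF1, 34.0% for the CCAAT box and 6.80% for the TATA box. Antisense genes and partners had 1 window per symbol, and the background had every listed window. Among 105 pairs with a window on each side, 22 had windows that overlapped, and the median distance between the 2 starts was 7341 bases. These distances used 1 RefSeq start per gene, while the 89 pairs above were counted from the closest of all GENCODE starts. The 2 measures are therefore not alike. A window also runs further before a start than after it. Pairs with close starts whose RNAs overlap at their 5′ ends can thus have windows that do not meet.

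The deposited values are of the TPM type and are called signal here. Plain TPM is a share of each library corrected for gene length, with a fixed total, and these values do not have a fixed total. Column totals were 828381 to 1027119, lowest in the 2 SF153 libraries of batch 2, and the sequencing depth behind them is unknown. None of the 161 genes was at 0 in any library. Mean signal ran from 5.01 to 134.2 with a median of 12.3. It was 5 to 10 in 64 genes, 10 to 50 in 78, and 50 or more in 19. Together the genes took 0.313% to 0.324% of the signal in the DMSO libraries and 0.385% to 0.474% in the SF153 libraries.

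Antisense RNA made up a larger part of the signal after SF153. The summed signal of the 161 genes was 3143, 3122, 3284 and 3264 in the DMSO libraries and 3931, 3880, 3927 and 3909 in the SF153 libraries. The groups did not overlap, and the mean went from 3203 ± 82.7 to 3912 ± 23.1 (SD, n = 4 each), a ratio of 1.22. At an adjusted p below 0.05 in limma, rises were called for 53 of the 161 genes and falls for 10. Over all 15542 genes tested the balance was the other way, with 13.0% called higher and 24.3% called lower, against 32.9% and 6.21% of the antisense genes. The median log2 difference, SF153 minus DMSO on the scale log2(signal + 1), was 0.21 for the antisense genes and −0.03 for all genes, and 75.8% of them were above 0. This scale understates the change of low genes. Averaging the libraries of each treatment and batch gave 32 rises and 3 falls, and batch 1 alone gave 32 and 3 and batch 2 alone 26 and 2. In the same order, 6.1%, 5.54% and 5.53% of all genes were called higher and 16.5%, 14.6% and 15.8% lower. Of the 53 rises and 10 falls, these fits kept 30 and 3, 30 and 2, and 23 and 1, and the remainder were new calls. In bulk RNA, fewer cells with a transcript and less transcript per cell cannot be told apart.

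Groups that did not overlap gave a like picture, with SF153 above in 54 antisense genes and below in 8, where 13.2% and 23.6% of all genes tested were apart in those directions. The changes were mostly modest. The log2 differences of the 53 rises centred on 0.50 (0.23 to 1.27), and those of the 10 falls on −0.51 (−1.20 to −0.40). On that scale 6 of the rises and 1 of the falls were at least 1, and in mean signal 7 rises and 1 fall were at least 2-fold. The 2 batches lay on the same side of 0 in 79.5% of the 161 genes and 77.5% of all genes, and the median difference of the 161 was 0.24 in batch 1 and 0.21 in batch 2. The treatment effect differed between batches for 0 antisense genes in limma, where 1.15% of all genes were called, and for 15 of them (9.32%) at an unadjusted p below 0.05, where 10.1% of all genes were. In the 143 genes with both treatment means at 5 or more, 50 were called higher and 7 lower. The 9 that reached the limit through DMSO alone had 3 lower, among them TMPO-AS1 and CARD8-AS1. The 9 that reached it through SF153 alone had 3 higher, HMGA2-AS1, DLGAP1-AS1 and NHSL1-AS1.

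**Figure D1:**
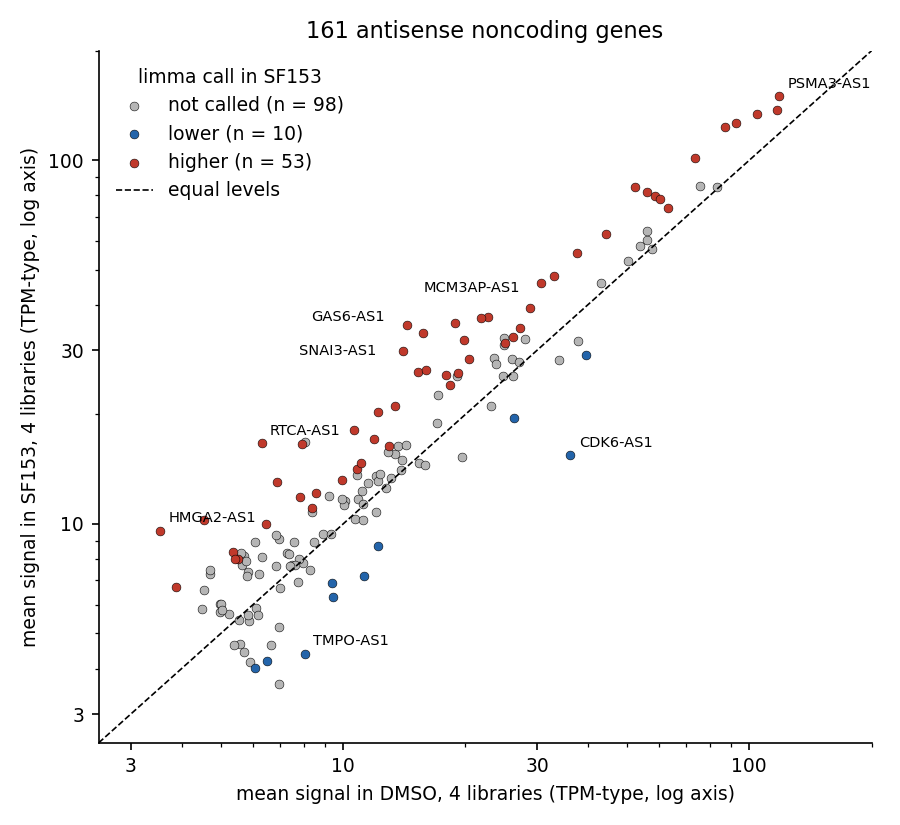
Mean signal of each of the 161 antisense genes in 4 DMSO libraries (x, log axis) and 4 SF153 libraries (y, log axis), coloured by the limma call. The 53 red points called higher lie above the line of equal levels up to the highest signals, while the 10 blue points called lower are below a mean signal of 50, CDK6-AS1 farthest from the line.

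Mitochondrial and small RNA genes held 43.6% to 47.9% of the signal in DMSO and 49.7% to 56.2% in SF153. The column totals were not fixed, so how far this difference touches other values is not known. When those genes were removed and the libraries rescaled, the median of all genes moved by 0.29 on the log2 scale. Then 110 antisense genes were called higher and 2 lower, beside 35.0% and 13.8% of all genes. With quantile normalization the median of all genes moved by 0.10. Then 78 antisense genes were called higher and 6 lower, beside 20.8% and 18.1% of all genes. The antisense median stayed 0.25 to 0.30 above the median of all genes under these scalings and median-of-ratios scaling. The excess of rises over falls is thus a statement relative to other genes, and the numbers of rises and of falls both depend on the scale.

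Other noncoding genes moved much as the antisense genes did. Of lncRNA genes at the same mean signal, 23 of 51 whose symbols end in DT (divergent transcripts of a coding promoter) were called higher and 2 lower, with a median of 0.34. The long intergenic genes with LINC symbols had 28 higher and 4 lower of 82 (median 0.25), and the remaining lncRNA genes 209 higher and 51 lower of 737 (median 0.23). Antisense genes of lower signal, with a mean of 1 to 5, had 16 higher and 5 lower of 185 and a median of 0.11. Protein-coding genes of a mean of 5 or more went the other way, with 1090 higher and 3386 lower of 9304 and a median of −0.17. No test of one class against another was made, and nothing here sets antisense genes apart from other lncRNA genes.

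**Figure D2:**
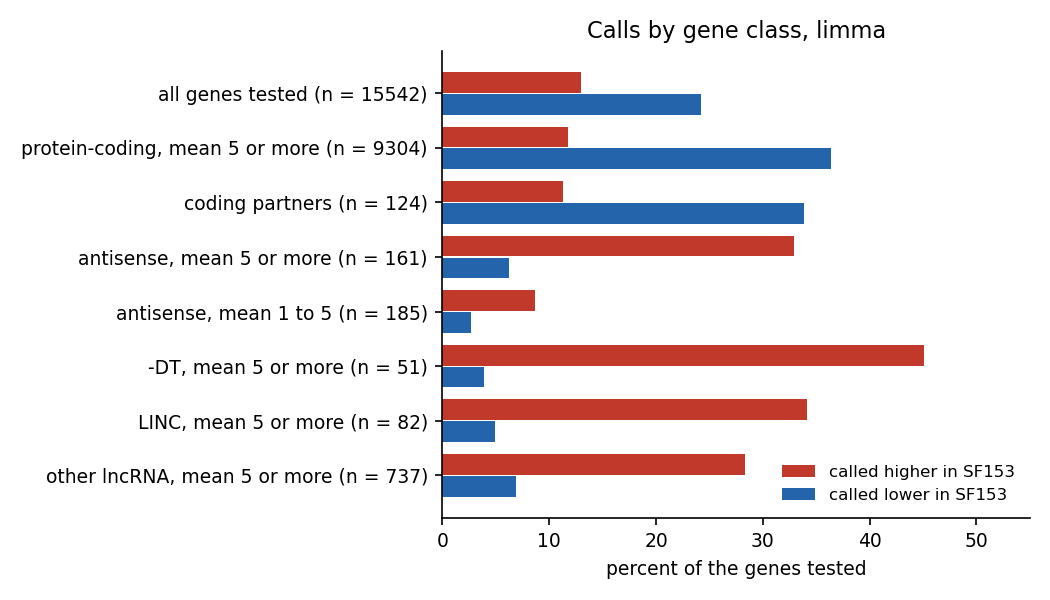
Percent of the genes tested that limma called higher (red) or lower (blue) in SF153, by gene class, with the number of genes tested in brackets. Each lncRNA class has more red than blue, and protein-coding genes and the coding partners have more blue than red.

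The 8 largest rises covered genes at very different levels. RTCA-AS1, antisense to the gene for an RNA 3′-phosphate cyclase, was at 4.53, 6.11, 7.37 and 7.18 in the DMSO libraries and at 14.9, 18.7, 12.7 and 20.3 in the SF153 libraries. Each SF153 library was above each DMSO library, with a log2 difference of 1.27 ± 0.18 (SE, n = 4 each, limma adjusted p = 0.000529). GAS6-AS1, antisense to the gene for a ligand of the TYRO3, AXL and MERTK receptors, was the steadiest. It was at 14.4, 13.9, 14.6 and 14.5 in DMSO and at 33.6, 36.0, 35.5 and 35.9 in SF153, a log2 difference of 1.24 ± 0.07 (SE, limma adjusted p = 9.71e-06). GAS6 itself is not listed in the tables, so the rise has no partner value beside it.

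HMGA2-AS1, within the gene for a chromatin-bending protein of fetal and tumor cells, was low in DMSO at 3.48, 4.95, 2.60 and 3.16 and reached 12.3, 8.89, 8.41 and 8.79 in SF153. The log2 difference was 1.23 ± 0.18 (SE, limma adjusted p = 0.000700), and again the groups did not overlap. Only its SF153 mean reached 5, so part of what chose it was its high level in SF153. SNAI3-AS1, antisense to a zinc-finger repressor of the Snail family, was at 14.0, 13.9, 13.5 and 14.9 in DMSO and 27.9, 32.1, 29.5 and 30.0 in SF153. MCM3AP-AS1, antisense to a gene for an mRNA export factor, was at 17.9, 19.7, 17.7 and 19.9 in DMSO and 36.0, 36.1, 34.4 and 36.0 in SF153. Both were tight within each treatment, with log2 differences of 1.03 ± 0.08 and 0.89 ± 0.08 (SE) and limma adjusted p of 3.40e-05 and 4.63e-05.

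DENND3-AS1, antisense to the gene for an activator of a Rab GTPase, had the widest DMSO values of these. They were 9.78, 17.1, 21.5 and 14.5, against 35.3, 27.5, 35.5 and 35.3 in SF153, a log2 difference of 1.08 ± 0.20 (SE, limma adjusted p = 0.00247). PARD6G-AS1, across introns of the gene for a cell polarity protein, went from 7.92 ± 0.756 to 16.6 ± 2.18 (SD, n = 4 each). DLGAP1-AS1, within the gene for a synaptic scaffold protein, went from 4.53 ± 1.71 to 10.2 ± 2.87 (SD, n = 4 each), and it too reached the limit through SF153 alone. The groups were apart in both, with log2 differences of 0.98 and 1.05.

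Only 10 antisense genes fell, and CDK6-AS1 fell most. It lies head to head with CDK6, which encodes a kinase of the G1 phase of the cell cycle. Its signal was 35.7, 32.4, 38.5 and 38.5 in DMSO and 16.3, 18.9, 11.1 and 15.6 in SF153, a log2 difference of −1.20 ± 0.14 (SE, limma adjusted p = 0.000218). Every SF153 library was below every DMSO library, and the fall was −0.91 in batch 1 and −1.48 in batch 2. TMPO-AS1, head to head with the gene for a nuclear lamina protein, was at 8.03, 8.13, 8.74 and 7.25 in DMSO and 3.55, 4.34, 4.95 and 4.75 in SF153, a log2 difference of −0.75 ± 0.13 (SE, limma adjusted p = 0.00169). Only its DMSO mean reached 5, so part of what chose it was its high level in DMSO.

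The other named falls were smaller. LAMP5-AS1 was at 13.0, 10.4, 9.04 and 12.4 in DMSO and 6.80, 6.61, 8.36 and 7.06 in SF153. PCED1B-AS1, the most abundant gene that fell, was at 44.2, 35.9, 36.9 and 41.1 and then 29.9, 34.8, 28.9 and 22.7. In both the SF153 libraries lay below the DMSO libraries, PCED1B-AS1 by a narrow gap. CARD8-AS1 (antisense to an inflammasome sensor gene), ZNF710-AS1 and MRPL20-AS1 (antisense to the gene for a mitochondrial ribosomal protein) also had groups apart, with log2 differences of −0.49, −0.52 and −0.43. BAZ2B-AS1 fell by 0.54 on the log2 scale, but SF153 1.2 at 5.68 was above DMSO 2.1 at 5.35, and the groups overlapped.

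Several of these falls were not stable. The call of BAZ2B-AS1 was lost without any of DMSO 1.1, 1.2, 2.2 and SF153 1.1, 2.1, 2.2 (limma adjusted p of 0.0604 to 0.103), that of MRPL20-AS1 without DMSO 1.2, SF153 2.1 or SF153 2.2 (0.0505 to 0.0568), and that of PCED1B-AS1 without DMSO 1.1 or 2.2 (0.0561 to 0.0634). With libraries averaged by treatment and batch, the limma adjusted p of CARD8-AS1 was 0.0908 and that of ZNF710-AS1 0.0514. Without mitochondrial and small RNA genes, 6 of the 8 named falls lost their call, and CDK6-AS1 and TMPO-AS1 did not.

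**Figure D3:**
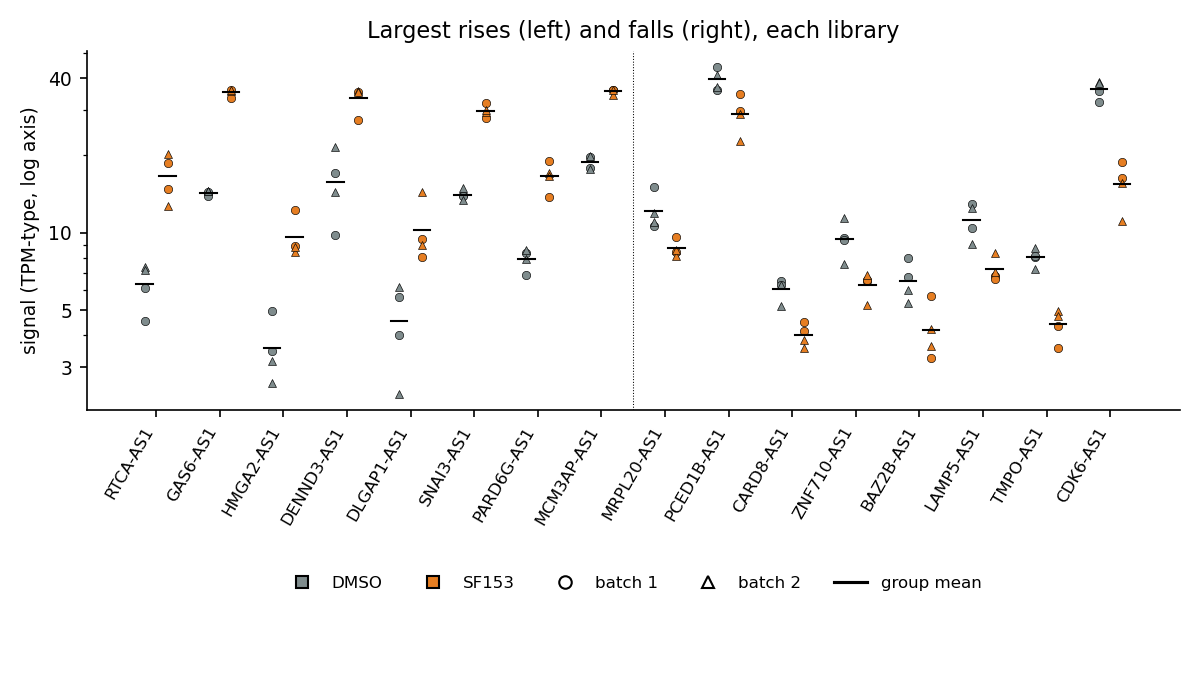
Signal (log axis) of the 8 antisense genes with the largest rises, left of the dotted line, and the 8 with the largest falls, right of it, in each DMSO (grey) and SF153 (orange) library, with circles for batch 1, triangles for batch 2 and bars for group means. The groups are apart in each gene except BAZ2B-AS1.

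The share of genes called higher was greatest at high signal. Of the 19 with a mean of 50 or more, 12 were called higher and 0 lower in limma (0 lower also at an unadjusted p below 0.05), of the 78 with a mean of 10 to 50, 31 higher and 4 lower, and of the 64 with a mean of 5 to 10, 10 higher and 6 lower. The spread between DMSO libraries changed with level as well, with a median coefficient of variation of 6.89%, 10.5% and 19.2% from the highest class to the lowest. The part of this spread in the counts was not tested. Other genes were not split at these levels, so the pattern is not shown to be particular to the antisense genes.

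PSMA3-AS1 was the most abundant, at 119.0, 110.8, 118.6 and 125.3 in DMSO and 131.3, 141.7, 158.0 and 168.4 in SF153, a log2 difference of 0.33 ± 0.09 (SE, limma adjusted p = 0.0146). NUTM2A-AS1 was next, at 115.2, 106.2, 124.8 and 122.2 and then 134.7, 143.6, 137.2 and 133.2. In both genes all SF153 libraries were above all DMSO libraries. With libraries averaged the calls were lost, with limma adjusted p of 0.115 and 0.18, and that of NUTM2A-AS1 also without DMSO 1.1, DMSO 1.2, SF153 1.2 or SF153 2.1 (0.058 to 0.0756). NUTM2A-AS1 has a counterpart of like name, NUTM2B-AS1. Their sequences were not compared, so whether reads could be divided between them is not known. The sum of both was 162.8 to 183.8 in DMSO and 191.2 to 202.8 in SF153.

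ITGB2-AS1 starts inside the gene of the beta-2 integrin of white blood cells. It was at 99.2, 98.5, 113.95 and 105.7 in DMSO and 152.2, 132.6, 120.6 and 130.2 in SF153, so that the groups were apart. Its log2 difference was 0.35 ± 0.09 (SE, limma adjusted p = 0.00980), 0.52 in batch 1 and 0.19 in batch 2, and with libraries averaged the limma adjusted p was 0.0859. ITGB2 was at a mean of 465.6 in DMSO and 361.0 in SF153 and did not pass the test (limma adjusted p = 0.0670), although it did with batch as a block (0.0106) and not with libraries averaged (0.237). Its difference was −0.16 in batch 1 and −0.63 in batch 2, and the treatment effect differed between batches (limma adjusted p = 0.0272). With quantile normalization its log2 difference turned from −0.40 to 0.560, so its direction depends on the scale.

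TSPEAR-AS2 was at 94.5, 87.5, 98.5 and 89.9 and then 125.1, 113.9, 144.8 and 123.8. Its neighbour on the same strand, TSPEAR-AS1, also rose, from 73.3 to 101.2 in the mean. SLC9A3-AS1, antisense to the gene for a sodium-proton exchanger, was at 85.9, 79.3, 83.9 and 99.8 in DMSO and 122.3, 113.6, 130.1 and 129.0 in SF153, a log2 difference of 0.50 ± 0.09 (SE, limma adjusted p = 0.00147). SLC9A3 had a mean signal of 1.06 in DMSO and 0.966 in SF153, so that the antisense RNA was by far the larger product of that locus per length.

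The order of the 5 highest levels in DMSO was PSMA3-AS1, NUTM2A-AS1, ITGB2-AS1, TSPEAR-AS2 and SLC9A3-AS1, with means of 118.5, 117.1, 104.3, 92.6 and 87.2. PSMA3-AS1 and NUTM2A-AS1 differed by less than the spread between libraries, with SDs of 5.94 and 8.31, as did TSPEAR-AS2 and SLC9A3-AS1, with SDs of 4.92 and 8.84. In SF153 SLC9A3-AS1 and TSPEAR-AS2 again lay within each other's spread, at 123.7 ± 7.61 and 126.9 ± 12.9 (SD, n = 4).

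Of the coding partners, 131 were listed and 30 were not, and 124 pairs had a mean signal of at least 1 on both sides and were tested. The treatment effect differed between batches in 2 of these partners (TPT1 and ITGB2). The partners followed the protein-coding genes, with 14 called higher and 42 lower in limma and a median log2 difference of −0.18. That majority of falls depends on the scale, since without mitochondrial and small RNA genes 44 partners were called higher and 27 lower. On that scale 35.0% of all genes were called higher and 13.8% lower. Partners were mostly the more abundant of the pair, with a median mean signal of 25.2 against 11.4 for the antisense genes. The antisense gene had the higher mean in 38 of 124 pairs in DMSO and in 45 in SF153.

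Differences of the antisense gene showed little relation to those of its partner. Across the 124 pairs Pearson's r was −0.03 and Spearman's rho −0.07, given as a description, since the pairs share the same 8 libraries. The signs were the same in 54 pairs. The ratio of antisense to partner signal, taken on the log2(signal + 1) scale within each library, is not altered by a factor common to the library except through the added 1. In limma this ratio rose in 50 pairs and fell in 7 of 124. Over all 283 antisense pairs with a mean of 1 or more on both sides, from which the 124 come, 28.6% were called higher and 5.30% lower, and the other 159 pairs had 31 higher and 8 lower. The median ratio difference was 0.34 in the 124 pairs and 0.26 in the 283. Removing the mitochondrial and small RNA genes gave 51 higher and 7 lower. Averaging libraries by treatment and batch gave 38 and 2, batch 1 alone 15 and 0 and batch 2 alone 21 and 4, and the 7 lowered ratios were 4 without DMSO 2.2 and 4 without SF153 2.2.

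**Figure D4:**
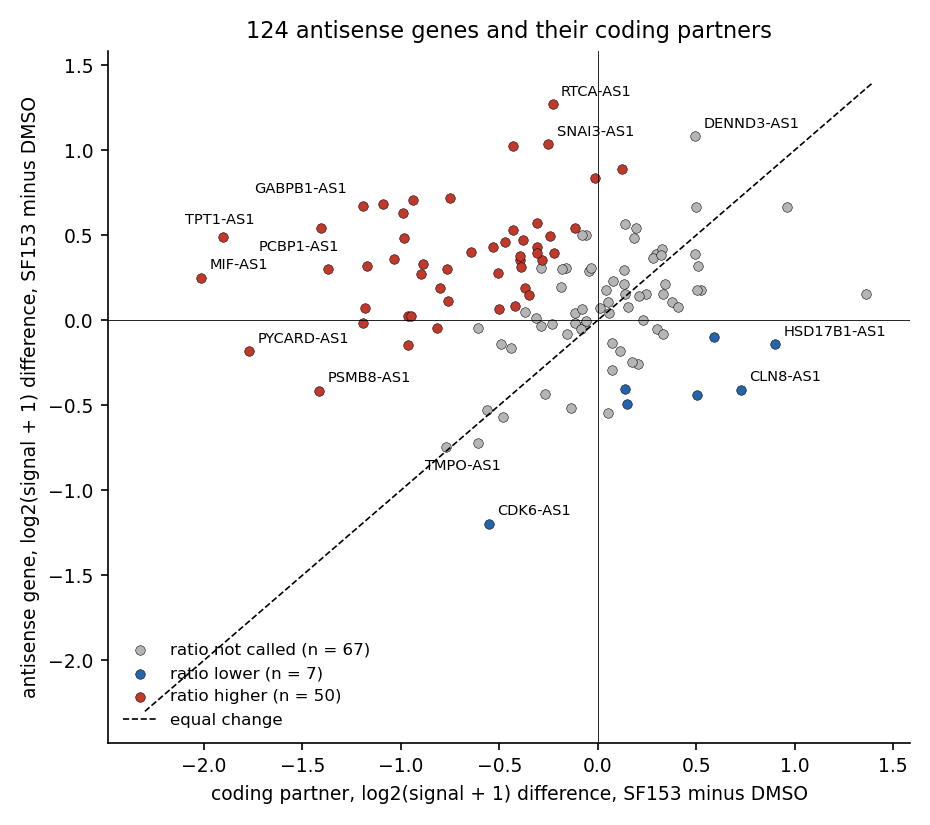
Log2 difference (SF153 minus DMSO) of the coding partner on x and of its antisense gene on y for 124 pairs, coloured by the limma call on their ratio, with a dashed line of equal change. Of the 50 red points, 44 have the partner below 0 and the antisense gene above 0, and the 7 blue points lie below the dashed line.

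The 50 raised ratios came about in several ways. In 11 pairs the antisense gene rose and the partner fell, in 20 the partner alone was called lower, in 9 the antisense gene alone was called higher, in 9 neither side was called, and in 1, PSMB8-AS1, both were lower. In 0 pairs was the antisense gene called lower and the partner called higher in limma, and 0 did so with an unadjusted p below 0.05 on each side. The 7 lowered ratios comprised CDK6-AS1 with both sides lower, 3 pairs with the antisense gene alone called lower (PCED1B-AS1, CARD8-AS1 and OTUD6B-AS1) and 3 with the partner alone called higher (CLN8-AS1, HSD17B1-AS1 and PAPLN-AS1). The ratio call of CARD8-AS1 was lost without any of DMSO 1.1, 1.2, 2.2 and SF153 1.1, 2.1, 2.2 (limma adjusted p of 0.0507 to 0.0708) and with libraries averaged (0.111). That of PCED1B-AS1 was lost without DMSO 1.1, DMSO 2.2, SF153 2.1 or SF153 2.2 (0.0507 to 0.0682), with libraries averaged (0.0589) and with quantile normalization (0.0835).

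Of the 42 partners called lower, 11 had the antisense gene called higher, a share near the 27.4% of all antisense genes in the 124 pairs. These 11 pairs called in opposite directions had both groups apart on both sides. Antisense log2 differences ran from 0.32 to 0.72 and partner differences from −1.90 to −0.28. In 8 of them the starts lay within 1 kb, and in 9 the exons overlapped. The antisense gene had the higher mean in 4 of these pairs in DMSO and in 7 in SF153. Their coding sides are of unlike function, and include a growth-associated calcium-binding protein (TPT1), RNA binding (PCBP1), a transcription factor subunit (GABPB1), peroxide removal (PRDX6) and a proteasome subunit (PSMA3).

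TPT1-AS1, whose promoter window is printed above, had the largest change in ratio. It was at 49.5, 47.9, 38.8 and 41.0 in DMSO and 58.2, 68.6, 60.5 and 62.9 in SF153, and rose by a log2 difference of 0.49 ± 0.10 (SE, limma adjusted p = 0.00321). TPT1 was at 2247, 2228, 1995 and 1948 in DMSO and only 749.0, 780.3, 401.2 and 420.2 in SF153. The 2 SF153 libraries of batch 2 were the lowest, and the log2 difference was −1.90 ± 0.22 (SE). It was −1.55 in batch 1 and −2.26 in batch 2, an effect that differed between batches (limma adjusted p = 0.00175), and −0.92 over both with quantile normalization. The ratio rose by 2.40 ± 0.25 (SE, limma adjusted p = 0.000165; 1.60 with quantile normalization), and the antisense RNA stayed the minor one throughout. The genes shared 26 exon bases.

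PCBP1-AS1 runs through the single-exon gene PCBP1 and shares 914 exon bases with it. It was at 63.6, 57.8, 54.2 and 48.7 in DMSO and 80.2, 82.9, 82.7 and 80.6 in SF153. PCBP1 was at 104.3, 100.9, 97.2 and 88.5 in DMSO and 42.2, 43.1, 32.9 and 28.8 in SF153. The 2 genes thus changed places, the coding gene being the higher in each DMSO library and the antisense gene in each SF153 library, with a ratio difference of 1.94 ± 0.17 (SE, limma adjusted p = 0.000124).

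GABPB1-AS1 was already above GABPB1, which encodes a subunit of the ETS-type factor GABP. The antisense gene was at 47.7, 47.6, 59.4 and 54.6 in DMSO and 69.2, 81.4, 95.7 and 90.8 in SF153. GABPB1 was at 11.7, 14.7, 10.5 and 11.2 and then 6.65, 4.05, 3.88 and 4.43. All SF153 libraries were apart from the DMSO libraries on either side, and the ratio rose by 1.86 ± 0.26 (SE, limma adjusted p = 0.000762).

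PRDX6-AS1, which does not overlap PRDX6 in release 29, was at 11.4, 9.74, 11.3 and 10.1 in DMSO and 14.4, 19.3, 19.9 and 18.9 in SF153. PRDX6 went from 63.6, 66.2, 60.6 and 63.5 to 32.8, 33.1, 33.5 and 31.1. The groups were apart on both sides, and the pair shares no bases in that annotation.

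PSMA3-AS1, which shares no exon bases with PSMA3 either, stood above it in every library. PSMA3 was at 80.9, 77.7, 73.6 and 76.1 in DMSO and 40.2, 45.8, 40.7 and 38.2 in SF153, a log2 difference of −0.89 ± 0.08 (SE), and the ratio rose by 1.22 ± 0.16 (SE, limma adjusted p = 0.000671). SLC16A1-AS1, head to head with the gene for a lactate transporter, had the largest antisense rise of the 11, from 21.9 ± 1.81 to 36.8 ± 4.77, as SLC16A1 fell from a mean of 35.2 to 20.7. A1BG-AS1 rose from 13.0 ± 1.21 to 16.4 ± 0.754 as A1BG, which encodes a plasma glycoprotein, fell from 14.9 to 6.04 (all SD, n = 4).

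The last pairs were TMEM147-AS1, ANXA2R-AS1 and PPP3CB-AS1. TMEM147-AS1 went from a mean of 8.39 to 11.0 and TMEM147, which encodes a membrane protein of the endoplasmic reticulum, from 27.1 to 12.7. ANXA2R-AS1 went from 58.6 to 79.6 and ANXA2R from 30.3 to 24.3. PPP3CB-AS1 went from 10.8 to 14.2 and PPP3CB, which encodes a catalytic subunit of calcineurin, from 29.1 to 23.8. These calls were the least firm of the 11, together with that of A1BG-AS1. The call of TMEM147-AS1 was lost without any of DMSO 1.1, 1.2, 2.1 and SF153 1.1, 2.1, 2.2 (limma adjusted p of 0.0543 to 0.077), that of PPP3CB-AS1 without any of DMSO 1.1, 1.2, 2.1 and SF153 1.1, 1.2, 2.1 (0.0548 to 0.0882), and that of A1BG-AS1 without DMSO 1.2, DMSO 2.2 or SF153 1.1 (0.0631 to 0.0651). ANXA2R lost its call without DMSO 1.1, DMSO 2.2, SF153 1.1 or SF153 2.2 (0.0523 to 0.0645) and PPP3CB without any of DMSO 1.1, 1.2, 2.1 and SF153 1.1, 1.2, 2.2 (0.0514 to 0.0601), and on the scale without mitochondrial and small RNA genes their log2 differences were 0.022 and 0.049. The log2 ratio differences of TMEM147-AS1, ANXA2R-AS1 and PPP3CB-AS1 to their partners were 1.39, 0.74 and 0.64, and none of these 3 calls was lost by leaving out 1 library. The ratio of PPP3CB-AS1 lost its call with libraries averaged (limma adjusted p = 0.0816) and in each batch alone (0.0738 and 0.276).

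**Figure D5:**
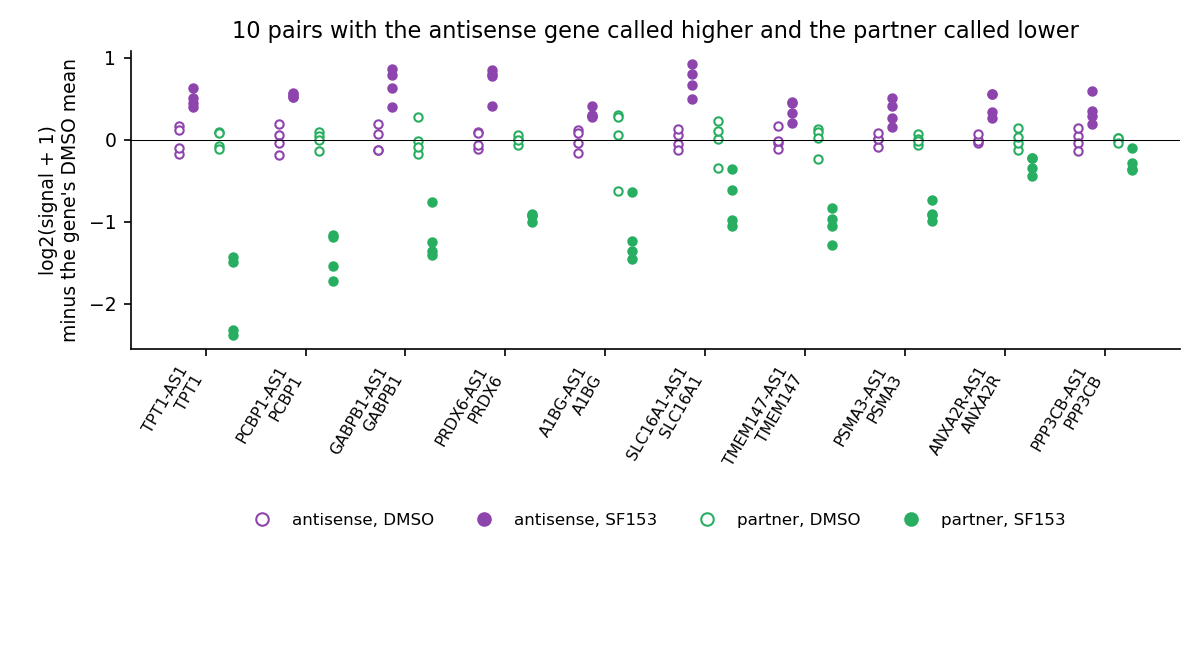
Log2(signal + 1) of each library minus the gene's DMSO mean for 10 of the 11 pairs called higher on the antisense side (purple) and lower on the coding side (green), with open circles for DMSO and filled circles for SF153, 4 of each. All filled purple points lie above the open ones and all filled green points below them, and the fall of TPT1 is the largest on the coding side. Batches are not marked.

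In other raised ratios the partner was called and the antisense gene was not. MIF-AS1 was near the limit of 5, at 5.52, 3.32, 5.34 and 5.73 in DMSO and 5.63, 6.32, 5.55 and 6.58 in SF153, and did not pass the test (limma adjusted p = 0.266). MIF, the macrophage migration inhibitory factor, went from 137.0, 119.0, 95.6 and 90.7 to 39.8, 31.6, 17.2 and 21.8. The ratio rose by 2.27 ± 0.31 (SE, limma adjusted p = 0.000671), and the genes shared 687 exon bases. LAMTOR5, a subunit of the Ragulator complex on lysosomes, went from a mean of 43.7 to 16.3, and LAMTOR5-AS1 was at 24.9 ± 2.84 in DMSO and 31.0 ± 4.79 in SF153 (SD, n = 4, limma adjusted p = 0.0895). SMIM15 went from 20.4 to 9.89, with SMIM15-AS1 at 4.71 ± 2.24 and 7.48 ± 1.33 (SD, n = 4, limma adjusted p = 0.0710). MIF-AS1 and SMIM15-AS1 reached the limit of 5 through SF153 alone, so part of what chose them was their level there. LAMTOR5-AS1 and SMIM15-AS1 lay near the threshold of the test. LAMTOR5-AS1 was called higher with each other scaling (limma adjusted p of 0.0039 to 0.0426), in batch 2 alone (0.0200) and without SF153 1.2 (0.0209), and SMIM15-AS1 with quantile normalization (0.0424), without mitochondrial and small RNA genes (0.00873), at the threshold itself with median-of-ratios scaling, in batch 2 alone (0.0432), with library number as a block (0.0356) and without DMSO 1.1 (0.00711). MIF-AS1 was called higher on the scale without mitochondrial and small RNA genes (0.0250).

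Pairs in which both sides were called in 1 direction numbered 8. The antisense gene was called higher beside 4 of the 14 partners called higher, and lower beside 4 of the 42 called lower. Over the 124 pairs 27.4% of antisense genes were called higher and 8.06% lower, so these counts are near those shares. DENND3, AP1G2, LENG8 and NHSL1 rose with their antisense genes. DENND3 was at 339.9, 364.3, 382.1 and 374.8 in DMSO and 539.3, 489.9, 529.1 and 502.2 in SF153, far above DENND3-AS1. AP1G2, which encodes a subunit of a clathrin adaptor, went from a mean of 64.2 to 91.1 as AP1G2-AS1 went from 19.9 to 32.1. None of these 4 ratios was called in limma, and their log2 ratio differences were 0.59, 0.17, 0.09 and −0.29, with adjusted p of 0.0625, 0.401, 0.745 and 0.468.

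CDK6, TMPO, LAMP5 and PSMB8 fell with their antisense genes. CDK6 was at 163.1, 163.9, 170.8 and 164.4 in DMSO and 125.8, 117.7, 103.0 and 104.4 in SF153, and CDK6-AS1 fell further, with a ratio difference of −0.64 ± 0.17 (SE, limma adjusted p = 0.0160). This ratio call was lost with libraries averaged (0.0773) and in each batch alone (0.218 and 0.0904). TMPO went from 155.9 ± 3.25 to 91.0 ± 2.45 (SD, n = 4), and its ratio with TMPO-AS1 differed by 0.02 ± 0.17 (SE, limma adjusted p = 0.924). LAMP5, a lysosome-associated membrane protein, went from 264 to 189 in the mean, with a ratio difference of −0.08 (limma adjusted p = 0.759). The fall of LAMP5 depends on the scale, its log2 difference going from −0.48 to −0.14 without mitochondrial and small RNA genes (limma adjusted p = 0.144) and to 0.034 with quantile normalization. PSMB8, a subunit of the immunoproteasome, went from 70.9 to 26.1, while PSMB8-AS1, with 618 shared exon bases, went from 26.4 to 19.6, so that the ratio rose by 1.00 ± 0.15 (SE, limma adjusted p = 0.000996).

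The lowered ratios in which the partner alone was called were those at CLN8, HSD17B1 and PAPLN. CLN8, a protein of the endoplasmic reticulum needed for lysosomal enzymes, rose from a mean of 17.8 to 30.2, with CLN8-AS1 at 6.63 ± 2.07 and 4.66 ± 1.25 (SD, n = 4). CLN8-AS1 reached the limit of 5 through DMSO alone. HSD17B1, an enzyme of estradiol synthesis, rose from 1.96 to 4.55, with HSD17B1-AS1 at 12.1 and 10.8. PAPLN rose from 19.1 to 29.3, with PAPLN-AS1 at 5.86 and 5.40. None of the 3 antisense genes passed the test, with limma adjusted p of 0.228, 0.399 and 0.536.

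Antisense genes whose coding partner was not listed had 17 higher and 0 lower of 30 in limma (2 lower at an unadjusted p below 0.05), against 36 higher and 10 lower of the 131 with a listed partner, and their medians were 0.39 and 0.18. The difference between these groups was not tested. Among the 30 was TTN-AS1, antisense to the titin gene of muscle, at 59.5, 59.3, 59.8 and 62.0 in DMSO and 80.1, 76.1, 78.6 and 77.5 in SF153, without overlap. ALOX12-AS1, antisense to a lipoxygenase gene, was at 23.9, 21.5, 20.8 and 24.9 and then 37.8, 38.7, 37.3 and 34.2. Both were chosen after their values were seen, as examples of rises called under each of 21 alternative settings.

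By position, 25 genes rose and 9 fell among the 89 with starts within 1 kb of the partner's, 20 rose and 1 fell among the 54 with overlapping exons, 6 rose and 0 fell among the 11 that met only introns, and 2 rose and 0 fell among the 4 without overlap. In the last 2 classes 0 were lower at an unadjusted limma p below 0.05 as well. Medians were 0.21, 0.19, 0.33 and 0.32. The ratio rose in 31 of 82 pairs with close starts and in 14 of 35 with overlapping exons. No test of these classes against each other was made. The 3 genes without a position in release 29 or without a partner position to compare were not called.

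The 98 antisense genes that did not pass the test were at log2 differences of −0.72 to 1.03. Of them 69 were above 0 and 29 below, 59 lay within 0.2 of 0, and 17 had an unadjusted p below 0.05. OIP5-AS1, a widely expressed gene also known as Cyrano, was at a mean of 57.6 in DMSO and 57.1 in SF153, and SATB1-AS1 at 83.2 and 84.2; both were chosen after their values were seen. For ASMTL-AS1 the 2 listed copies are identical genes and their split is uncertain, and their sum was 17.5 to 25.0 in DMSO and 28.9 to 33.9 in SF153.

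Genes of antisense RNA turnover were examined as a list of 50, all of them tested. Rises were called for 4 in limma (8%) and falls for 20 (40%), beside 13.0% and 24.3% of all genes and 11.7% and 36.4% of protein-coding genes with a mean of 5 or more. The median log2 difference was −0.21, against −0.03 for all genes and −0.17 for those coding genes, so the list stood near the coding genes in general. On the scale without mitochondrial and small RNA genes 16 were called higher and 11 lower, beside 35.0% and 13.8% of all genes. Exosome core and nuclease genes had 0 higher (0 at an unadjusted limma p below 0.05) and 8 lower of 13. C1D, an exosome cofactor, went from a mean of 9.56 to 3.96 (log2 difference −1.09), and EXOSC4, a core subunit, from 15.2 to 8.29 (−0.84). Of 5 termination genes, 4 fell, among them WDR82, from 25.1 to 11.5 (−1.07), and ZC3H4, from 25.9 to 12.7 (−0.99), whose products together restrict noncoding transcription. PCF11, a cleavage factor, rose from 84.6 to 99.1 (0.23).

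Adaptors that deliver noncoding RNA to the exosome had 1 higher and 2 lower of 10. RBM7 fell from 20.0 to 10.4 (−0.89), and ZFC3H1, of the connection for polyadenylated RNA, rose from 86.0 to 102.8 (0.26). Integrator, a complex that ends transcription early, had 2 higher (INTS3 and INTS10) and 4 lower of 15. Among 7 genes of proteins that bind double-stranded RNA 0 rose in limma (0 also at an unadjusted p below 0.05) and 2 fell, ILF2 from 80.7 to 33.0 (−1.30) and DHX9 with a log2 difference of −0.75. Whether these levels have a part in the antisense differences was not tested.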

How the data were processed

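RNA sequencing of total RNA depleted of ribosomal RNA was analysed in 8 libraries of NKM-1 cells, 4 with SF153 and 4 with DMSO, 2 of each per batch. The deposited signal values, which the authors' file labels call both CPM and TPM, were used as deposited; their column sums differ and lie on both sides of the total of plain TPM, so they are treated as a signal of the TPM type with unknown depth. The analysis plan had assumed TPM, and the same test was applied. Per the submitters' processing notes the upstream tools were STAR, Salmon, edgeR and CASAVA 1.8.2, on build GRCh38, with their roles not given. The use of strand in counting is not given either.

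The 15542 of 17912 genes whose signal averaged 1 or more entered a limma fit (version 3.58.1, R 4.3.3) of log2(signal + 1) on treatment alone, two-sided, with the variance prior following intensity. Calls needed a p below 0.05 after Benjamini-Hochberg adjustment over all genes. Ratios were tested likewise over 283 pairs, on the difference of log2 values within each library. The fit was tested on simulated data with known fold changes. The labels' batch number is shared between treatments, so the batch block is given as an alternative. Same-batch deviations from the group means had a mean correlation of 0.026 and other-batch deviations −0.026. Deviations within a group cancel out, so the second value nearly mirrors the first by construction and is no separate observation.

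The members and lists were chosen with earlier results of these data known. Genes named are the 8 largest called rises and falls, the 8 largest called ratio changes, the 5 highest levels and the pairs called in opposite directions, of which 1 is counted but not reported here by name; others are marked. Alternatives covered the pseudocount, filters, scaling, blocks, averaging, single batches and leaving out each library. Positions came from GENCODE 29 on GRCh38 (17245 of 17912 identifiers matched; the files use a newer release) and promoter windows of 300 bases from RefSeq GRCh38.p14.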

Additional observations from a re-analysis of the deposited data

Results flagged for a closer look

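In 5 named antisense genes 1 library lay far from the other 3 of its treatment, by a gap that took most of the range of the 4 values. DENND3-AS1 was at 27.49 in SF153 1.2, below the other SF153 libraries and still above every DMSO library. HMGA2-AS1 was at 12.27 in SF153 1.1, above the others. LAMTOR5-AS1 was at 29.12 in DMSO 1.1, above the other DMSO libraries and within the SF153 range. MCM3AP-AS1 was at 34.43 in SF153 2.1, slightly below 3 nearly equal values. MIF-AS1 was at 3.32 in DMSO 1.2, below every other library. Chance gives such a gap in about 1 in 20 groups of 4; over all 161 genes and both treatments it was seen in 11 of 322 groups, or 3.42%.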

How the results depend on the processing

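Of the counts of antisense genes called higher or lower (53 and 10), removing the mitochondrial and small RNA genes gave 110 and 2, quantile normalization 78 and 6, averaging libraries by treatment and batch 32 and 3, batch 1 alone 32 and 3, and batch 2 alone 26 and 2. Shares of all genes called higher and lower were 35.0% and 13.8% after that removal and 20.8% and 18.1% with quantile normalization. They were 6.1% and 16.5% with averaging, 5.54% and 14.6% in batch 1 and 5.53% and 15.8% in batch 2. Median-of-ratios scaling gave 16.5% and 21.2%. Of the 97 antisense genes with a mean of at least 10, 43 and 4 were called (44.3% and 4.12%), and of the 32 without shared exon bases 14 and 1 (43.8% and 3.12%). Leaving out each library in turn gave 45 to 54 and 7 to 11. Under the scalings all 53 rises kept their call, and 0 called genes changed direction. Partners (14 and 42) were 22 higher with median-of-ratios scaling, 32 with quantile normalization, 44 (and 27 lower) after removal of mitochondrial and small RNA genes, 7 higher with averaging and 6 in batch 1 alone. Ratios (50 and 7) were 38 and 2 with averaging, 15 and 0 in batch 1, 21 and 4 in batch 2, and 39 to 48 and 4 to 8 with each library left out. The 0 lower ratios of batch 1 are limma calls over 4 libraries. The turnover list (4 and 20) was 16 and 11 after that removal and 11 and 13 with quantile normalization. With batch as a replicate block the antisense counts were 53 and 10, and with library number as a block 50 and 10; the batch block ended no named antisense call, made ITGB2 pass (adjusted p = 0.0106), and the number block 3 of 31 (NUTM2A-AS1, PPP3CB-AS1 and TMEM147-AS1). Averaging ended 12 of the 31. In all, 19 antisense genes, 18 higher and CDK6-AS1 lower, were called under each of 21 alternatives.

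Some signs turned, among them those of LAMP5 (−0.48), ANXA2R (−0.31) and PPP3CB (−0.28), which were called lower in the reported fit. Without mitochondrial and small RNA genes the log2 difference of ANXA2R was 0.022, MRPL20 0.067, PPP3CB 0.049, RTCA 0.093, SLC9A3 0.114, SNAI3 0.010 and ZNF710 0.177, and the TMPO-AS1 ratio −0.026. With quantile normalization ITGB2 was 0.560 (limma adjusted p = 0.00178, −0.40 and not called in the reported fit), LAMP5 0.034, ZNF710 0.006, the DENND3-AS1 ratio −0.122 and the TMPO-AS1 ratio −0.126. In batch 1 alone MCM3AP was −0.020 and the TMPO-AS1 ratio −0.124, and in batch 2 alone SLC9A3 was 0.071 and the LAMP5-AS1 ratio 0.001. A pseudocount of 5 gave the LAMP5-AS1 ratio 0.068, and 0.1 the TMPO-AS1 ratio −0.087. Leaving out 1 library gave BAZ2B −0.010, ZNF710 0.015 (both without DMSO 1.1), SLC9A3 0.027 (without DMSO 2.1) and the TMPO-AS1 ratio −0.015 (without DMSO 2.2), −0.037 (without SF153 2.1) and −0.024 (without SF153 2.2). The cause of these turns was not tested.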
